A study of Mus musculus with 5 samples.

Results

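The Hippo pathway genes and the target genes of its effectors YAP and TAZ were examined in EpH4 cells, a non-transformed mouse mammary epithelial line, after targeting of Mef2d. The list holds 35 genes chosen by name from the known pathway, 19 that encode pathway components and 16 that are established transcriptional targets. They were chosen with earlier results of these data known. Of the 12934 genes in the deposited table, 34 were members of the list, and all 34 were among the 12483 genes tested, so every pathway gene and 15 of the 16 targets could be compared. The target Fjx1 was not among the genes listed and has no value here.

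All libraries came from EpH4 cells with a stable, lentiviral Cas9, selected with blasticidin. The 3 sgControl libraries were from cells with a control sgRNA and the 2 sgMef2d libraries from cells with an sgRNA against Mef2d, also delivered by lentivirus and selected with puromycin as stable clones, whose number is not given. The study used a pair of sgRNAs against Mef2d, and the labels do not say which of them each library carries, nor whether the libraries of a group came from separate cultures, so the p-values measure the spread between these libraries, which may be technical. Cell density at harvest is not given in the sources used here, although the pathway responds to it.

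The Hippo pathway restrains growth when epithelial cells become crowded. Its core is a kinase relay in which MST1 and MST2 (Stk4 and Stk3), helped by the scaffold SAV1, activate LATS1 and LATS2 with their MOB1 partners, and the LATS kinases phosphorylate YAP and TAZ (Yap1 and Wwtr1) so that they are kept out of the nucleus. YAP and TAZ that enter the nucleus bind the TEAD factors and switch on genes such as Ccn1, Ccn2 and Ankrd1. This control acts on the proteins, through phosphorylation and location, and RNA levels read only the amounts of the transcripts and the output of the targets.

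Library totals lay between 13601145 and 20498563 counts. The members had between 63 and 15727 counts in a library. Mef2d itself had 64.3, 76.9 and 71.5 CPM (counts scaled to a common library size) in the sgControl libraries and 64.2 and 65.8 CPM in the sgMef2d libraries (adjusted p = 0.400 in the quasi-likelihood test of edgeR), and counts per gene do not show whether its coding sequence was disrupted. sgControl replicate 1 stood apart from the other controls, with a chi-square per degree of freedom (1 for counting error alone) of 10.3 and 13.3 against them, while replicates 2 and 3 differed by 1.99 and the sgMef2d libraries by 2.03. Pairs of a sgControl and a sgMef2d library lay between 10.6 and 12.7, so sgControl replicate 1 was about as far from the other controls as the groups were from each other. All 8 epithelial markers examined were listed, with summed levels of 2420 to 2520 CPM in sgControl and 2350 to 2460 CPM in sgMef2d. Of the 8 fibroblast markers, 6 were also listed, at 643 to 767 CPM and 608 to 649 CPM, while Lum and Thy1 were not. Of the 8 immune and endothelial markers only Cd68 and Lyz2 were listed, at 0.851 to 1.47 CPM and 1.77 to 2.29 CPM. Of the 8 epithelial markers, Epcam (log2 ratio of sgMef2d to sgControl 0.13), Cdh1 (0.13), Elf3 (0.35) and Ovol1 (0.39) had both sgMef2d libraries above every control, as did 20.6% of all genes, without passing an adjusted p of 0.05 in that test, while Krt18 (-0.26) was lower past it. Of the fibroblast markers, Col1a2 (-0.54) was lower and Col3a1 (1.45) and Dcn (1.23) higher past it, while Col1a1 (0.39) had both sgMef2d libraries above and Pdgfra (-0.25) both below every control without passing. Without sgControl replicate 1, Epcam (edgeR adjusted p = 0.00661), Elf3 (0.031), Col1a1 (6.82e-05), Pdgfra (0.00127) and Pdgfrb (0.00609) passed, beside 29.4% of all genes. Cdh1 and Ovol1 did not, and the Col1a1 log2 ratio was then 0.21. Krt18 and Dcn lost their calls without sgControl replicate 2 (adjusted p = 0.0647 and 0.0534), sgMef2d replicate 1 (0.283 and 0.183) or sgMef2d replicate 2 (0.199 and 0.141), with lowest values over the alternatives of 2.66e-08 and 3.96e-05. The part of these marker differences in the results was not tested, and in bulk RNA fewer cells with a transcript and less of it per cell cannot be told apart.

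The promoters of the members were searched for the short motifs that TEAD and MEF2 factors bind. Sequences of 250 bases before the annotated start were taken from RefSeq on GRCm38.p6, the C57BL/6J reference, and 25 of the 35 members had one. The paper describes EpH4 as derived from a BALB/c mouse, so the sequences are of another strain than the cells. Stk3, Tead1, Tead4, Arhgef17, Asap1, Ccdc80, Ccn2, Dock5, Fjx1 and Nuak2 had none. Each was searched for the core TEAD motif GGAATG and its reverse complement CATTCC, which do not overlap each other, and for the MEF2 motif, which reads the same on both strands. The TEAD core was found in 14 of the 31 promoters of the members (45.2%), against 10.9% of the 11978 promoters of all genes tested and 12.6% of all 32851 promoters in the reference. It was found in 7 pathway genes (Amotl2, Mob1a, Sav1, Tead3, Vgll4, Wwtr1 and Yap1) and in 5 targets (Ajuba, Ankrd1, Ccn1, Crim1 and Ptpn14). Of the members, 5 had several promoters, and some of these overlap. The MEF2 motif was found in 0 of the 25 members with a promoter, against 1.44% of the promoters of genes tested. A match to so short a motif is a description and not a bound site, and no match says only that these letters are absent from this window.

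Crim1 is the member past the threshold whose promoter held the TEAD core, 79 bases before the start, and Ccn1, the most abundant member, is shown beside it with the core on the other strand, 103 bases before the start. The Ankrd1 promoter held it in 2 places, 210 and 123 bases before the start. The capitals mark the TEAD core, and each sequence runs 5′ to 3′ on the strand of its gene. The Crim1 sequence lies at chr17:78199998-78200247 on the plus strand and the Ccn1 sequence at chr3:145649986-145650235 on the minus strand of GRCm38.p6.
Crim1: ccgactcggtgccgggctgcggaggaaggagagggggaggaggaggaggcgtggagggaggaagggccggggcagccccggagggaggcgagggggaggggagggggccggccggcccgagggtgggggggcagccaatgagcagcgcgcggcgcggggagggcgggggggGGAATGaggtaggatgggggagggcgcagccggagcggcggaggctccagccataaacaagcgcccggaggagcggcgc
Ccn1: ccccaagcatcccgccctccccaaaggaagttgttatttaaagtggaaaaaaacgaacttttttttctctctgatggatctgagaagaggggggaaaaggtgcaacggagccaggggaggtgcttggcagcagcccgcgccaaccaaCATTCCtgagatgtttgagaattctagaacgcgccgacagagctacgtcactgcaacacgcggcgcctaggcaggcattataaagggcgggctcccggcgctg

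In the comparison of sgMef2d with sgControl, more of the targets than of the pathway genes had changed levels, and most of those that changed were lower. The threshold was an adjusted p of 0.05 over all genes in the quasi-likelihood test of edgeR, given below as the edgeR adjusted p, and changes are given as the log2 ratio of sgMef2d to sgControl with its standard error (SE). Past it, 6 of the 15 targets differed, 5 lower (Ccn2, Crim1, Dock5, Nt5e and Nuak2) and 1 higher (Ccdc80). Of the 19 pathway genes, 2 differed, both lower (Nf2 and Amot). Over all genes tested 7.95% passed this threshold, 3.67% higher and 4.28% lower. The pathway genes were thus near the share of all genes, while the share of the targets was larger. Because the lists were chosen with earlier results of these data known, these shares are a description only. At an unadjusted p below 0.05, 8 targets were lower and 1 higher and 4 pathway genes lower and 0 higher, beside 23.2% of all genes, 12.0% lower and 11.2% higher.

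The medians showed the same order. The median log2 ratio was -0.17 for the targets and -0.02 for the pathway genes, beside 0.0031 over all genes, and 12 of 15 targets and 14 of 19 pathway genes had a value below 0, beside 49.3% of all genes. For the pathway genes this did not hold with the trend in length and GC content removed, where 9 of 19 lay below 0 and the median was 0.02, nor without sgControl replicate 2, where 10 of 19 did. The median absolute log2 ratio was 0.27 for the targets, 0.06 for the pathway genes and 0.12 for all genes. Both sgMef2d libraries lay below all sgControl libraries for 9 of the 15 targets and for 6 of the 19 pathway genes, beside 20.5% of all genes tested, and above them for 1 of each, beside 20.6%. The groups were thus apart for 10 targets and 7 pathway genes, beside 41.1% of all genes. No test was made of the list medians or of targets against pathway genes. As log2 CPM centred on each gene's mean, the median over the targets was 0.03, 0.11 and 0.10 in sgControl replicates 1, 2 and 3 and -0.08 and -0.15 in sgMef2d replicates 1 and 2, so that the groups did not overlap. For the pathway genes the same medians were -0.03, 0.07 and 0.02 in sgControl and -0.02 and -0.03 in sgMef2d, which overlapped.

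**Figure D1:**
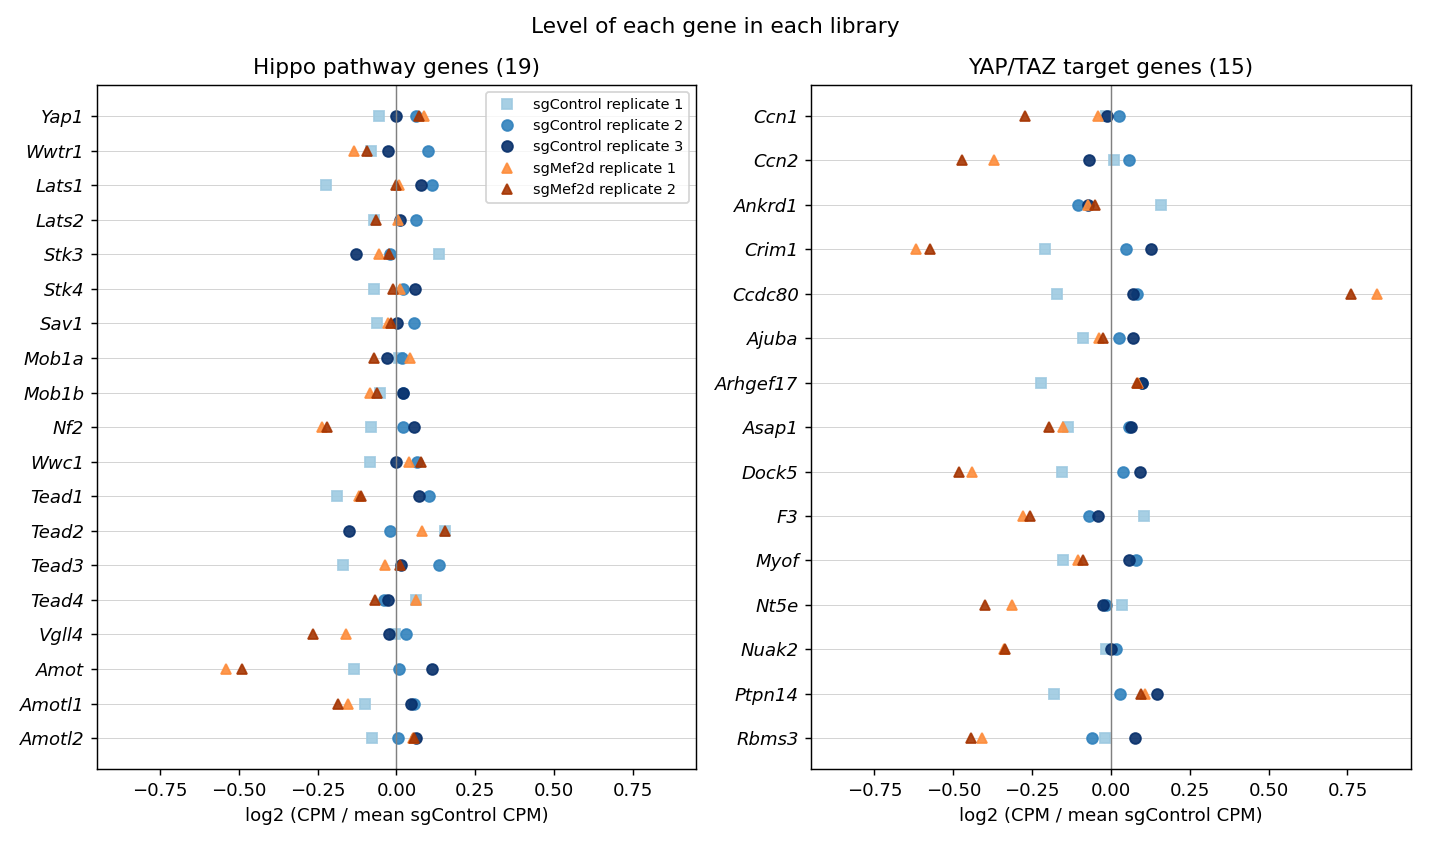
Level of each of the 34 members in each of the 5 libraries, as log2 of its CPM over the mean of the sgControl libraries (x axis, one row per gene, pathway genes left and targets right). Squares and circles are sgControl libraries and triangles sgMef2d libraries. The triangles of Crim1, Dock5, Ccn2, Nt5e, Nuak2 and Amot lie left of every sgControl library and those of Ccdc80 right of them, while most pathway genes overlap.

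Neither effector gene passed the threshold with all 5 libraries. Yap1, which encodes the coactivator YAP (chr9:7931999-8004596 of GRCm38), had 153, 166 and 159 CPM in the sgControl libraries and 169 and 167 CPM in the sgMef2d libraries. Both sgMef2d values were just above the highest control. The log2 ratio was 0.08 (SE 0.059, 95% interval -0.05 to 0.21, edgeR adjusted p = 0.478), and with the trend in length and GC content removed it was 0.16 (adjusted p = 0.0571, in a range up to 0.806). Wwtr1, which encodes its paralog TAZ (chr3:57455649-57575910), had 79.3, 90.0 and 82.4 CPM in sgControl and 76.4 and 78.6 CPM in sgMef2d. The sgMef2d values were just below the lowest control. The log2 ratio was -0.11 (SE 0.070, 95% interval -0.27 to 0.04, edgeR adjusted p = 0.374). Without sgControl replicate 1 it was -0.15 and passed (edgeR adjusted p = 0.0206), and without sgControl replicate 2 it was -0.06 (0.745). Per kb of annotated exon, the levels of Yap1 and Wwtr1 were close, with 17.2 ± 0.671 and 17.6 ± 1.15 CPM per kb (SD, n = 3) in sgControl. Yap1 made up 49.5% ± 0.702 of the summed level per kb of the pair in sgControl (SD, n = 3) and 52.8% ± 0.664 in sgMef2d (SD, n = 2). With the longest transcript as the length, the Yap1 share was 62.8% in sgControl and 65.8% in sgMef2d, so the order of the pair depended on the length used in sgControl, whereas in sgMef2d Yap1 was the more abundant by either length.

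In the kinase relay no gene passed the threshold. Over its 7 genes (the MST kinases Stk3 and Stk4, their scaffold Sav1, the LATS kinases Lats1 and Lats2 and their activators Mob1a and Mob1b), 0 were called by edgeR, here or in any of 15 alternatives that included DESeq2 and limma-voom, and 0 had an unadjusted p below 0.05, although 1 did without sgControl replicate 1. Over all genes these shares were 7.95% and 23.2%, so that a count of 0 among 7 genes is near the background at the adjusted threshold. Their log2 ratios ran from -0.07 for Mob1b to 0.01 for Lats1. The narrowest 95% intervals, those of Mob1b (-0.19 to 0.06) and Mob1a (-0.14 to 0.12), lay beside wider ones for Lats1 (-0.18 to 0.21) and Stk3 (-0.23 to 0.14). With the trend in length and GC content removed, Mob1b was at 0.08 and Mob1a at 0.02, of the opposite sign, and neither passed. Lats1 had 126, 159 and 155 CPM in sgControl and 148 and 147 CPM in sgMef2d, and its widest gap was between sgControl replicate 1 and the other controls. Of the annotated exons of Lats2, 42.39% are shared with the overlapping same-strand gene Gm49361, and 25.38% of those of Sav1 lie opposite exons of Atl1, so the counts of Lats2 and Sav1 are less certain than the others.

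The relay was unevenly shared between paralogs, in the same way in both groups. Lats1 made up 83.7% ± 1.16 of the LATS level per kb in sgControl (SD, n = 3) and 84.2% ± 0.423 in sgMef2d (SD, n = 2), and Stk4, which encodes MST1, 76.9% ± 2.50 and 77.3% ± 0.407 of the MST level. Mob1a made up 87.7% ± 0.404 and 88.1% ± 0.672 of the MOB1 level. These differences between groups were no larger than the larger SD. The SD of the LATS share does not cover the uncertainty of the Lats2 counts from the exons shared with Gm49361. With the longest transcript as the length, Lats1, Stk4 and Mob1a still exceeded their paralogs, at 79.4%, 66.8% and 82.1% in sgControl.

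**Figure D2:**
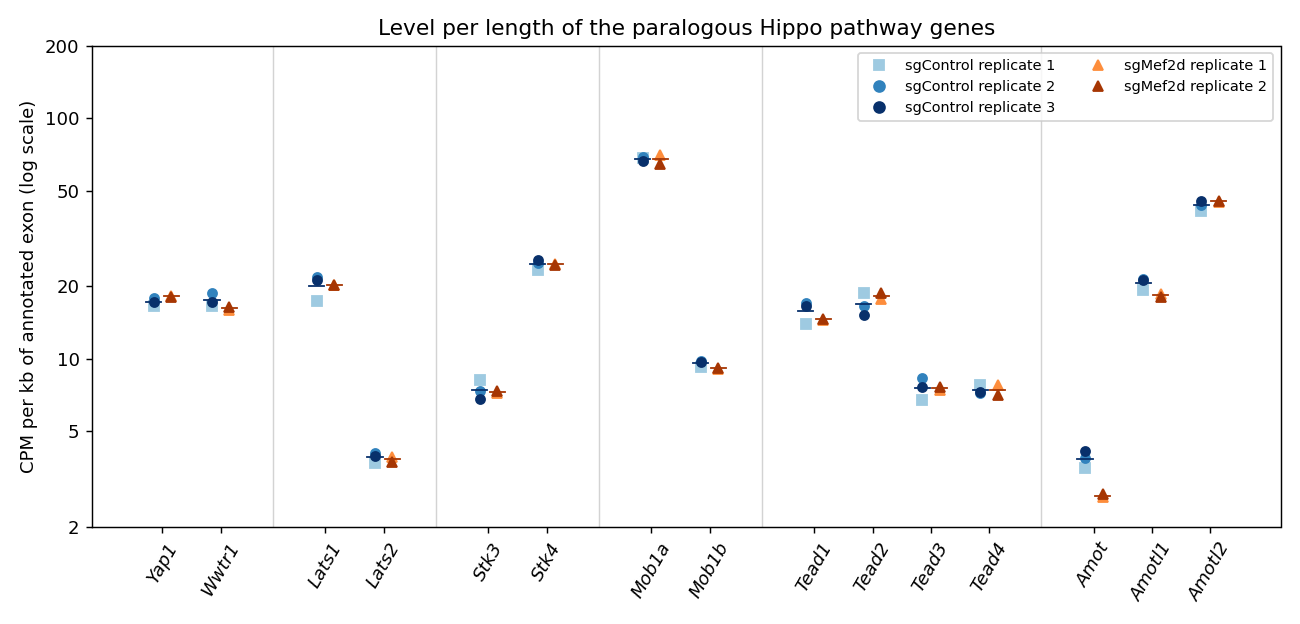
Level of the paralogous pathway genes in each library, in CPM per kb of annotated exon (y axis, log scale). Points are libraries, with sgControl left and sgMef2d right of each tick, and short lines are group means. Amot is the gene whose groups stand furthest apart, at 3.84 and 2.69, while Lats1, Stk4 and Mob1a exceed their paralogs in every library.

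Upstream of the relay, Nf2 fell. It encodes merlin, the membrane-linked scaffold that recruits LATS kinases and a known tumor suppressor (chr11:4765845-4849536). Nf2 had 313, 336 and 344 CPM in the sgControl libraries and 281 and 284 CPM in the sgMef2d libraries, so the groups did not overlap. The means were 331 ± 16.0 and 283 ± 1.71 CPM (SD over 3 and 2 libraries), a log2 ratio of -0.23 (SE 0.060, 95% interval -0.36 to -0.10, edgeR adjusted p = 0.0411), so that its level fell by 14.6%. This call was close to the threshold. It was kept in 10 of the 15 alternatives and lost with the replicate number as a block (adjusted p = 0.117) and without sgControl replicate 2 (0.160), sgControl replicate 3 (0.115), sgMef2d replicate 1 (0.301) or sgMef2d replicate 2 (0.311), while the lowest value over the alternatives was 7.08e-09. Because sgControl replicate 3 has no sgMef2d library of its number, it does not enter the ratio under the block. That alternative therefore overlaps with leaving out sgControl replicate 3. Wwc1, which encodes the partner of merlin KIBRA, had 106 ± 5.21 CPM (SD, n = 3) in sgControl and 110 ± 2.36 CPM (SD, n = 2) in sgMef2d, and its groups overlapped (edgeR adjusted p = 0.611).

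Of the 3 angiomotin genes, Amot fell and the others did not pass the threshold. These junction proteins bind YAP and TAZ and hold them outside the nucleus. Amot (chrX:145446425-145505181) had 29.4, 32.5 and 34.9 CPM in the sgControl libraries and 22.2 and 23.0 CPM in the sgMef2d libraries. Both sgMef2d libraries were well below the lowest control. Amot fell from 32.3 ± 2.72 to 22.6 ± 0.555 CPM (SD over 3 and 2 libraries), a log2 ratio of -0.51 (SE 0.094, edgeR adjusted p = 0.00700). It stayed past the threshold in 13 of 15 alternatives and lost its call without either sgMef2d library, with an adjusted p from 2.84e-08 to 0.106 over all of them. Amotl1 had 194, 216 and 215 CPM in sgControl and 187 and 183 CPM in sgMef2d, a log2 ratio of -0.17 that did not pass (edgeR adjusted p = 0.136). Amotl2, itself also known as a YAP target, had 259, 274 and 285 CPM in sgControl and 283 and 284 CPM in sgMef2d, inside the range of the controls (log2 ratio 0.06, 95% interval -0.08 to 0.19). Per kb, Amotl2 was the most abundant and Amot the least, and the Amot share of the summed level was 5.65% ± 0.196 in sgControl (SD, n = 3) and 4.07% ± 0.105 in sgMef2d (SD, n = 2), while that of Amotl2 was 63.9% ± 0.590 and 68.1% ± 0.346. These shares differed by more than the spread within the groups. The difference in shares was not tested.

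Of the 4 TEAD factors, which carry YAP and TAZ to DNA, 0 passed the edgeR threshold and 0 had an unadjusted p below 0.05, beside 7.95% and 23.2% of all genes, shares at which few of 4 genes would pass. Per kb of annotated exon, Tead2 (16.9 ± 1.79 CPM per kb) and Tead1 (15.8 ± 1.69) were the most abundant in sgControl and did not differ beyond their spread, and Tead3 (7.58 ± 0.788) and Tead4 (7.41 ± 0.295) were lower and likewise close (SD, n = 3 each). With the longest transcript as the length Tead3 reached 14.8 CPM per kb and Tead4 8.67, so that the order of the 4 means was kept and the closeness of Tead3 and Tead4 was not. Tead1 had 188, 230 and 225 CPM in sgControl and 197 and 198 CPM in sgMef2d, and Tead2 had 89.9, 79.7 and 72.8 CPM and 85.4 and 89.9 CPM. In both genes sgControl replicate 1 lay on the far side of the other controls, beyond or level with the sgMef2d libraries. Tead1 and Tead2 had log2 ratios of -0.12 and 0.11 (edgeR adjusted p = 0.437 and 0.462), and without that library these were -0.20 (adjusted p = 2.68e-05) and 0.20 (adjusted p = 0.00241), with adjusted p over the alternatives up to 0.982 and 0.868. Tead3 and Tead4 had log2 ratios of -0.0078 and -0.0013, and both changed sign under other settings. Vgll4, which encodes a cofactor that competes with YAP for the TEADs, had 82.9, 84.9 and 81.9 CPM in sgControl and 74.4 and 69.2 CPM in sgMef2d. Its groups did not overlap, and its log2 ratio of -0.21 did not pass the threshold (edgeR adjusted p = 0.0680), although it passed without sgControl replicate 1 (0.00110) and with the trend in length and GC content removed (0.0242), in a range up to 0.528.

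Of the 4 tested targets grouped as secreted or matrix proteins, with the membrane-spanning Crim1 among them, Ccn2 and Crim1 fell, Ccdc80 rose and Ccn1 did not pass the threshold. Ccn2, formerly Ctgf, encodes a matricellular growth factor that is among the targets most often used to read YAP activity (chr10:24595442-24598683). It had 173, 179 and 164 CPM in the sgControl libraries and 133 and 124 CPM in the sgMef2d libraries. Both sgMef2d libraries were below every control. Ccn2 fell from 172 ± 7.69 to 129 ± 6.43 CPM (SD over 3 and 2 libraries), a log2 ratio of -0.42 (SE 0.064, edgeR adjusted p = 0.00245). Of its annotated exons, 23.24% lie opposite exons of the gene Gm15270, which had 64, 42 and 33 counts in sgControl and 24 and 20 in sgMef2d, against 1841 to 3547 for Ccn2. The part of this overlap in the Ccn2 result was not tested.

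Crim1 showed the largest drop of the 34 members. It encodes a transmembrane protein that binds BMP growth factors, and its promoter is shown above (gene at chr17:78200248-78376592). Crim1 had 179, 214 and 226 CPM in the sgControl libraries and 135 and 139 CPM in the sgMef2d libraries, with the lowest control still well above both. It fell from 207 ± 24.6 to 137 ± 2.40 CPM (SD over 3 and 2 libraries), a log2 ratio of -0.59 (SE 0.089, edgeR adjusted p = 0.00222), and it stayed past the threshold in 15 of 15 alternatives. Ccdc80, a secreted matrix-binding protein (chr16:45093402-45128077), moved the other way. It had 9.07, 10.8 and 10.7 CPM in sgControl and 18.3 and 17.3 CPM in sgMef2d. Ccdc80 rose from 10.2 ± 0.988 to 17.8 ± 0.705 CPM (SD over 3 and 2 libraries), a log2 ratio of 0.82 (SE 0.115, edgeR adjusted p = 0.00137), also in 15 of 15 alternatives. It was the second least abundant of the targets, above Rbms3 alone, and had 146 to 311 counts in a library.

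Ccn1, formerly Cyr61, is the sister of Ccn2 and another standard reporter of YAP. It had 767, 790 and 770 CPM in the sgControl libraries and 755 and 642 CPM in the sgMef2d libraries. One sgMef2d library was close to the controls and the other clearly lower. The log2 ratio of -0.15 (SE 0.071, 95% interval -0.31 to 0.0059) did not pass the threshold (edgeR adjusted p = 0.232). Without sgControl replicate 1 the edgeR adjusted p was 5.06e-04, and with the trend in length and GC content removed it was 0.0427 at a log2 ratio of -0.23, with values up to 0.904 under other alternatives. The log2 ratio was -0.28 without sgMef2d replicate 1 and -0.04 without sgMef2d replicate 2. Ankrd1, which encodes a nuclear ankyrin-repeat protein and is the other common reporter, had 162, 135 and 138 CPM in sgControl and 138 and 140 CPM in sgMef2d. The sgMef2d libraries lay among the lower controls, and the log2 ratio was -0.07 (SE 0.080, 95% interval -0.24 to 0.11, edgeR adjusted p = 0.677). None of these 3 reporters was higher in sgMef2d past the threshold.

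Among surface and intracellular targets, those that passed the threshold were lower. Nt5e, which encodes the ectonucleotidase CD73 (chr9:88327197-88372092), had 284, 274 and 272 CPM in sgControl and 223 and 210 CPM in sgMef2d, a log2 ratio of -0.36 (SE 0.058, edgeR adjusted p = 0.00363). Dock5, an activator of the GTPase RAC (chr14:67752135-67933442), had 96.1, 110 and 114 CPM in sgControl and 78.9 and 76.7 CPM in sgMef2d, a log2 ratio of -0.45 (SE 0.078, edgeR adjusted p = 0.00472). Nuak2, which encodes an AMPK-related kinase that acts on actomyosin (chr1:132316126-132333488), had 75.3, 76.9 and 76.1 CPM in sgControl and 60.1 and 60.3 CPM in sgMef2d, a log2 ratio of -0.34 (SE 0.062, edgeR adjusted p = 0.00657). In each of these 3 genes both sgMef2d libraries were below every control. Over the 15 alternatives, Ccn2 and Nt5e stayed past the threshold in 14 and Dock5 and Nuak2 in 13. The calls lost were those without sgMef2d replicate 2 for all 4 genes and without sgMef2d replicate 1 for Dock5 and Nuak2, with adjusted p from 0.0664 to 0.122 there, and the alternatives as a whole ranged down to 1.56e-15.

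The other 9 targets did not pass the threshold. F3, which encodes tissue factor, came closest, with 41.7, 37.0 and 37.7 CPM in sgControl and 32.0 and 32.5 CPM in sgMef2d and an edgeR adjusted p of 0.0664. It passed without sgControl replicate 1 (0.0250), with the replicate number as a block (0.0434) and with the trend in length and GC content removed (0.0210), in a range up to 0.353. Rbms3, an RNA-binding protein, had 5.77 ± 0.282 CPM (SD, n = 3) in sgControl and 4.30 ± 0.0796 CPM (SD, n = 2) in sgMef2d, and its log2 ratio of -0.42 equalled that of Ccn2 but had a standard error of 0.159 at 63 to 117 counts per library (edgeR adjusted p = 0.136). Asap1, an ARF GTPase-activating protein, had a log2 ratio of -0.17 and groups that did not overlap (edgeR adjusted p = 0.170). Myof (-0.10), Ajuba (-0.03), Arhgef17 (0.09) and Ptpn14 (0.10) had overlapping groups, as did Ankrd1. When a library was left out, Myof ranged from -0.17 to -0.05 and Ptpn14 from 0.01 to 0.18. Ajuba and Ptpn14 are targets that also act within the pathway, as a LATS inhibitor and a YAP-binding phosphatase.

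**Figure D3:**
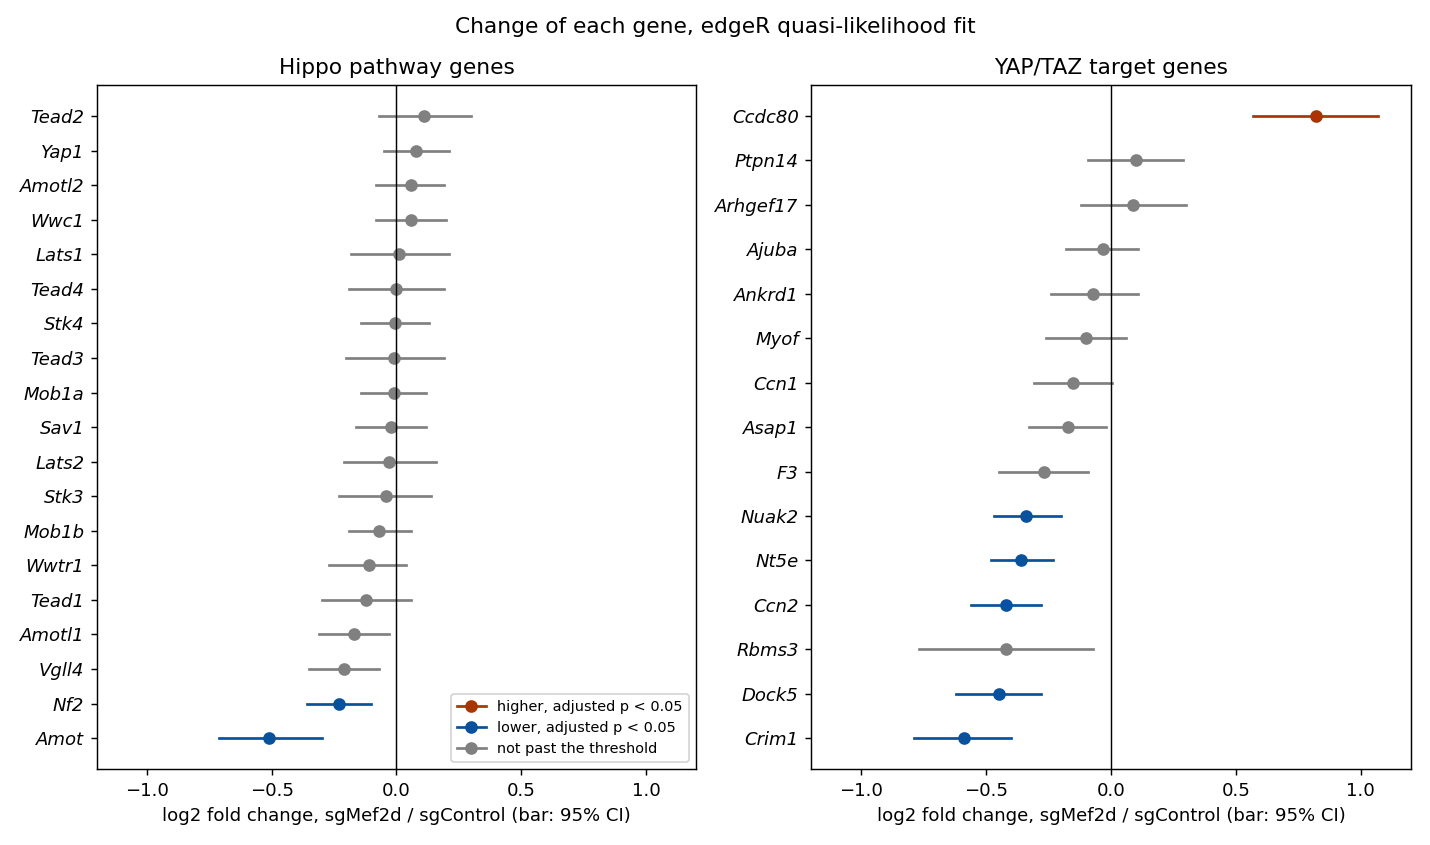
Log2 ratio of each member between sgMef2d and sgControl (x axis, points) with its 95% interval (bars), as fitted with edgeR, for 19 pathway genes (left) and 15 targets (right) in order of the change. Blue marks genes lower and brown the gene higher past an adjusted p of 0.05, and gray those not past it. The calls run from -0.59 for Crim1 to 0.82 for Ccdc80, and most pathway genes lie near 0.

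The 8 members past the threshold lay on 8 chromosomes. Their median level was 140 CPM in sgControl (10.2 to 331 CPM), beside 112 CPM (5.77 to 776 CPM) for the 26 members not past it, and their median exon length was 6410 bases, beside 6201 bases. Of these 8 genes, 4 had a promoter in the reference, and 1 of these, Crim1, held the TEAD core.

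sgControl replicate 1 changed how many members passed. Among the targets its level differed from the mean of sgControl replicates 2 and 3 by a median of 0.20 on the log2 scale, beside 0.04 between replicates 2 and 3, and among the pathway genes by 0.11 beside 0.05. Without it, 10 of 15 targets passed the threshold, 9 lower and 1 higher, and 7 of 19 pathway genes, 6 lower and 1 higher, while 29.4% of all genes did, 14.8% lower and 14.6% higher. The genes that joined were Ccn1, Asap1, F3 and Myof among the targets and Wwtr1, Tead1, Tead2, Vgll4 and Amotl1 in the pathway, with edgeR adjusted p from 1.26e-06 to 0.0250. Without sgControl replicate 2 or 3, 1 pathway gene and 6 targets passed, beside 4.84% and 6.51% of all genes. Without sgMef2d replicate 1 or 2, which leaves a single library whose spread is taken from the controls, 4 and 2 targets and 0 pathway genes passed the edgeR threshold, beside 1.88% and 1.83% of all genes. At an unadjusted p below 0.05 without sgMef2d replicate 1, 3 pathway genes were lower and 0 higher and 7 targets lower and 1 higher, beside 982 lower and 798 higher of 12683 genes. Without sgMef2d replicate 2 these were 2 and 0 pathway genes and 6 and 1 targets, beside 870 lower and 713 higher of 12801 genes. Across other methods, the counts of pathway genes and targets were 2 and 6 under DESeq2 (6.44% of all genes), 2 and 6 under limma-voom (7.55%) and 3 and 8 with the trend in length and GC content removed (9.90%). The median of the targets stayed below that of the pathway genes in each fit that left out a library. Why sgControl replicate 1 differs was not tested.

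**Figure D4:**
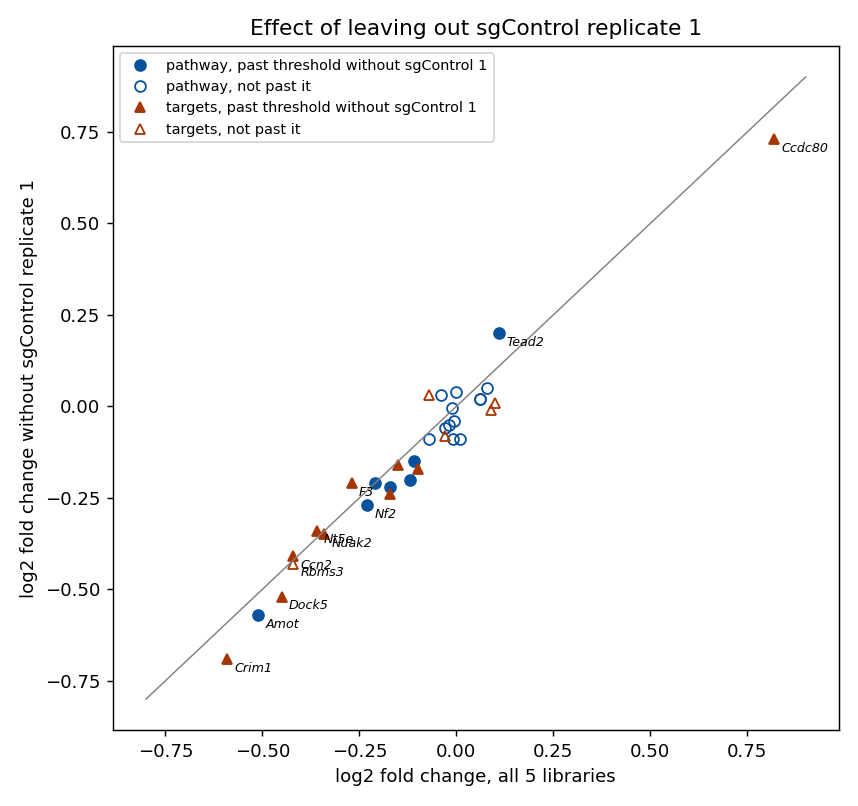
Log2 ratio of the 34 members with all 5 libraries (x axis) and without sgControl replicate 1 (y axis). Filled symbols passed an adjusted p of 0.05 without that library, circles are pathway genes and triangles targets, and the line marks equal values. The members keep close to the line, and the 17 filled symbols include Tead2 on the higher side with Ccdc80.

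A wider set of pathway genes, none of them members and likewise chosen with earlier results of these data known, was tested beside them. Of 50 further upstream kinases, phosphatase-complex subunits and polarity or junction genes, 45 were listed and tested, and 2 passed the threshold, both lower, beside 7.95% of all genes (4.28% lower), with a median log2 ratio of -0.08. Stk26, which encodes the MST4 kinase, had 4.10, 2.84 and 3.37 CPM in sgControl and 1.41 and 1.28 CPM in sgMef2d, at 19 to 84 counts, and fell at a log2 ratio of -1.37 (SE 0.267, edgeR adjusted p = 0.00917). Vgll3, a TEAD cofactor, had 112, 127 and 121 CPM in sgControl and 102 and 98.7 CPM in sgMef2d, and fell at a log2 ratio of -0.25 (SE 0.068, edgeR adjusted p = 0.0443). Stk26 lost its call without sgMef2d replicate 1 (0.0965) or replicate 2 (0.115), in a range down to 1.08e-04. Vgll3 was close to the threshold and passed in 8 of 15 alternatives, losing its call under DESeq2 (0.0564), under limma-voom (0.0524), with the trend in length and GC content removed (0.0896) and without any one of sgControl replicates 2 (0.175) and 3 (0.0909) and sgMef2d replicates 1 (0.225) and 2 (0.367). Without sgControl replicate 1 the count was 18 of 45, 16 lower and 2 higher, beside 29.4% of all genes, 14.8% lower and 14.6% higher.

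A wider set of 22 published YAP/TAZ targets, also chosen with earlier results of these data known, had calls mostly in the lower direction. Of the 19 listed and tested, 7 passed the threshold, of which 6 were lower and 1 higher, beside 7.95% of all genes (4.28% lower and 3.67% higher), and the median log2 ratio was -0.14. Over the fits that left out a library this median ran from -0.25 (without sgControl replicate 1) to -0.09 (without sgControl replicate 2). Ddah1, whose enzyme breaks down methylated arginines, had a log2 ratio of -0.45 (edgeR adjusted p = 8.42e-04) and the integrin subunit gene Itgb5 of -0.47 (6.57e-04). The transglutaminase gene Tgm2 (-0.34, 0.00693), the growth factor gene Tgfb2 (-0.58, 0.0111) and the stress gene Gadd45a (-0.42, 0.0240) fell as well. Mdfic, named because it was the remaining call, had a log2 ratio of -0.27 (edgeR adjusted p = 0.0410) and lost its call under DESeq2 (0.0785), with the trend in length and GC content removed (0.0959) and without sgControl replicate 2 (0.154), sgMef2d replicate 1 (0.357) or sgMef2d replicate 2 (0.189), with a lowest value of 4.85e-04. Igfbp3, which encodes an IGF-binding protein, rose from 40.6 ± 3.38 to 87.8 ± 7.11 CPM (SD over 3 and 2 libraries), a log2 ratio of 1.11 (SE 0.083, edgeR adjusted p = 1.79e-05). Areg, which encodes the EGF receptor ligand amphiregulin, had 24.9, 21.7 and 21.2 CPM in sgControl and 22.5 and 24.2 CPM in sgMef2d. Its groups overlapped, with a log2 ratio of 0.04 (95% interval -0.18 to 0.26, edgeR adjusted p = 0.862). The Areg ratio ranged from -0.04 to 0.12 over the alternatives, above 0 in 11 of 15, and was 0.12 without sgControl replicate 1. Without sgControl replicate 1, 13 of the 19 passed, beside 29.4% of all genes, and without sgMef2d replicate 1 or 2, 3 passed, beside 1.88% and 1.83%. Itgb5, Ddah1 and Igfbp3 kept their calls in 15 of 15 alternatives, whereas Tgm2, Tgfb2 and Gadd45a lost theirs without sgMef2d replicate 1 (edgeR adjusted p = 0.161, 0.123 and 0.192) or replicate 2 (0.0709, 0.0993 and 0.211), and Gadd45a also without sgControl replicate 2 (0.0735), while the lowest values over their alternatives were 1.81e-13, 1.25e-12 and 2.42e-04. Many of these genes answer to other signals as well, and the lists share no gene with the members.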

How the data were processed

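RNA of EpH4 cells was measured in 3 sgControl and 2 sgMef2d libraries, made from poly(A)-selected RNA with a strand-marking kit. Reads had been aligned with STAR2 against GRCm38, and the authors deposited raw counts for each gene, in whole numbers. Their processing notes also list CASAVA and Subread, and the strand setting of the counting is not given in the sources used here. Each listed gene reached at least 11 counts in a library, so low genes were removed before deposit. The methods name GENCODE version 22, and 12934 of 12934 identifiers matched GENCODE M21, which gave symbols, positions and exon lengths.

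Counts were fitted with edgeR 4.0.16 in R 4.3.3 (TMM normalization, default expression filter, bias-adjusted quasi-likelihood test, adjusted p below 0.05 by Benjamini-Hochberg over 12483 genes). CPM used the TMM library sizes. Standard errors were derived from the fold change and its F statistic. No low-value filter removed a listed member. The members and lists were chosen with earlier results of these data known. All members are accounted for, those past the threshold with every library's value. Of the wider target list, the 6 with the smallest p were named, with Areg and, chosen after its values were seen, Mdfic. The Ccn1 and Ankrd1 promoters were added after the search. Alternatives were other normalizations, filters and tests (DESeq2 1.42.0, limma-voom from limma 3.58.1), a replicate block, removal of each library's trend with exon length and GC content (loess, span 0.3), leaving out each library and, chosen after seeing the data, the longest transcript as gene length. On simulated counts of 12350 genes for sgMef2d against sgControl, 56 of 66 genes changed by 0.5 on the log2 scale and all 67 changed by 1 were recovered, with 16 calls among 12150 unchanged genes. The simulation held no library that stood apart as sgControl replicate 1 did, and its smallest change was 0.5. Its shares therefore do not carry over to these data or to smaller changes. Intervals cover counting and replicate error as fitted.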

Additional observations from a re-analysis of the deposited data

How the results depend on the processing

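The alternatives that changed normalization, the form of the edgeR test or the expression filter left the counts of members past the threshold at 2 pathway genes and 6 targets, as did DESeq2 and limma-voom. With the replicate number as a block 1 pathway gene (Amot) and 7 targets passed, beside 1253 of 12483 genes, and the block moved Stk4 to 0.03, Tead3 to 0.0054 and Ajuba to 0.0038 on the log2 scale, against values below 0 without it. The block takes sgControl replicate 3 out of the ratio, so it is not separate from the fit without that library. Correlations of the deviations of same-numbered libraries from their group means were 0.0113 and -0.000916, so no large shared deviation was seen. With 2 sgMef2d libraries, whose deviations mirror each other, this cannot decide whether the numbers pair the libraries. Leaving out each library in turn gave 0 to 7 pathway genes, 2 to 10 targets, 0 to 18 further pathway genes and 3 to 13 further targets, beside 1.83% to 29.4% of all genes, with medians from -0.07 to -0.0021 for the pathway genes and -0.26 to -0.14 for the targets. Removing the trend with length and GC content moved the median of the targets to -0.23 and turned that of the pathway genes to 0.02, and it turned Stk3 (0.02), Stk4 (0.02), Sav1 (0.03), Mob1a (0.02) and Mob1b (0.08). The cause was not tested. Stk4 (0.0016) and Tead4 (0.0037) turned with upper quartile factors and Tead3 (0.0015) under limma-voom. The log2 fold changes that turned when a library was left out ranged from -0.09 to 0.08 for Lats1, -0.07 to 0.0044 for Lats2, -0.10 to 0.03 for Stk3, -0.04 to 0.02 for Stk4, -0.05 to 0.0066 for Sav1, -0.08 to 0.04 for Mob1a, -0.09 to 0.06 for Tead3, -0.07 to 0.06 for Tead4, -0.12 to 0.03 for Ankrd1, -0.08 to 0.0029 for Ajuba and -0.01 to 0.14 for Arhgef17. Of the further pathway genes 1 passed with the stricter filter (876 of all 10659 genes), under DESeq2 (804 of 12483) and under limma-voom (942 of 12483), and 5 of 45 at an adjusted p below 0.10 (1584 of 12483). Genes with few counts, such as Rbms3 and Stk26, are limited by counting error.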
